A study of Mus musculus with 3 samples.

Results

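The Egr, Nr4a, Ier and Klf early-response genes are transcription factors and small regulatory proteins whose mRNAs are made quickly, and for a short time, after a cell is stimulated. The genes described here were 10 of the 16621 genes listed in at least 1 library: Egr1, Egr2, Egr3, Nr4a1, Nr4a2, Ier2, Ier3, Klf4, Klf6 and Klf10, taken by name and matched by their Entrez gene IDs. All 10 had an estimate above 0 in every library. The mice were C57BL/6, aged 10 weeks, and the RNA was from their tail tendon derived stem cells, progenitors isolated from tendon and expanded in culture. The cells were untreated, in low-glucose medium with fetal bovine serum, and were taken when confluent at passage 4. The WT group was 1 library of wild-type cells and the DF508 group was 2 libraries of cells with the ΔF508 mutation of Cftr, the gene of the anion channel that is defective in cystic fibrosis. The labels do not say from how many mice or cultures the libraries came. Genotype therefore cannot be told apart from other differences between the single WT library and the others, and p-values measure only the spread between the DF508 libraries, which may be technical.

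The total expected count, RSEM's estimate of the reads from all genes, was 5298326 in WT, 5241826 in DF508 replicate 1 and 5246886 in DF508 replicate 2. Levels are given as CPM (the usual scaling of an expected count to its library total) and, between genes, as FPKM (fragments scaled to transcript length and library size, as the authors deposited it). Markers of tendon cells and fibroblasts summed to 11699, 11884 and 12549 FPKM in these libraries, although the tendon transcription factor Scx had 16, 11 and 13 counts. Mesenchymal stem cell surface markers summed to 948, 917 and 914 FPKM, although Nt5e among them had 8, 10 and 2 counts. Of 6 epithelial markers, none was listed above 0 in WT, and the summed count was 4 and 3 in DF508 replicates 1 and 2. DF508 replicate 2 stood apart in macrophage and myeloid markers. Their summed level was 104 CPM in WT, 164 CPM in DF508 replicate 1 and 763 CPM in DF508 replicate 2, and none of the 16 was at 0 in any library.

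Serum, growth factors, stress and mechanical load act through MAP kinases, serum response factor and CREB on promoters that are already open, so that these genes are transcribed before any new protein is made. The proteins then act on later genes, and many of the mRNAs are short-lived. EGR proteins bind GC-rich sites through zinc fingers, and in mouse embryos Egr1 and Egr2 take part in tendon differentiation and collagen gene expression. NR4A proteins are nuclear receptors that act without a classical hormone. KLF proteins are zinc finger factors that bind GC-rich and CACCC sites, and among them Klf10 is known as a TGF-beta-inducible gene with a role in mouse tendon and bone. Ier2 and Ier3 encode short proteins, of which IER3 is known as a regulator of cell survival.

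The highest of the 10 genes stood 306-fold above the lowest in WT, and 144-fold and 130-fold above it in DF508 replicates 1 and 2, on the FPKM scale. Egr1 was the highest in every library, with 431 FPKM in WT, 357 in DF508 replicate 1 and 331 in DF508 replicate 2, which ranked it 134th, 150th and 162nd among all genes. Ier2 was next with 158, 94.4 and 86.8 FPKM. Egr1 stood 2.73-fold above Ier2 in WT and 3.78-fold and 3.82-fold above it in the DF508 libraries, on the FPKM scale. Ier3 (73.8 FPKM), Klf6 (65.7) and Klf4 (52.7) followed in WT, then Nr4a1 (35.4), Egr2 (21.0) and Egr3 (10.1). Klf10 and Nr4a2 came last, with 1.55 and 1.41 FPKM in WT. The order was nearly the same in DF508. Klf6 there stood above Ier3, with 47.2 ± 0.106 against 43.3 ± 2.86 FPKM (SD, n = 2). Nr4a1, at 34.0 and 42.9 FPKM, overlapped Klf4, at 34.7 and 32.3 FPKM. Egr1 made up 58.7% of the summed CPM of the 10 genes in WT and 62.8% and 60.7% in DF508, so their sum follows Egr1 (2264, 1748 and 1682 CPM). Without Egr1 the other 9 summed to 936 CPM in WT and 650 and 661 CPM in DF508.

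**Figure D1:**
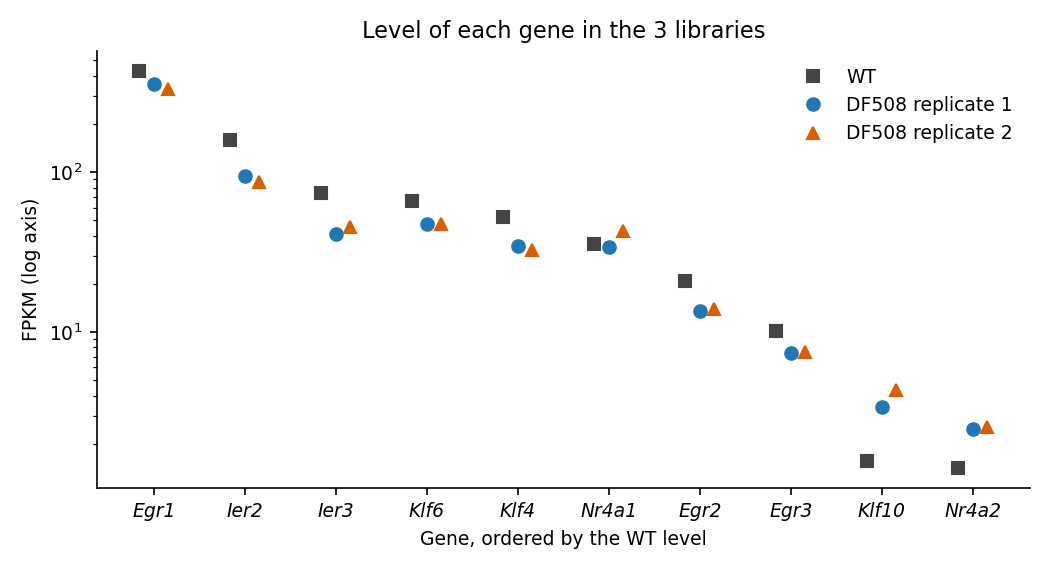
FPKM (log axis) of each gene in the WT library (squares), DF508 replicate 1 (circles) and DF508 replicate 2 (triangles), ordered by the WT level; each point is 1 library. The WT square lies above both DF508 points for Egr1, Ier2, Ier3, Klf6, Klf4, Egr2 and Egr3, below both for Klf10 and Nr4a2, and between them for Nr4a1.

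The promoters of 4 of these genes are shown because they held a match to at least 1 of 6 short motifs searched, among them sites of factors known to act on early-response genes. RefSeq promoter windows (GRCm38.p6) ran from 250 bases before to 50 bases after a transcript start. Those of 6 of the 10 genes were searched: Egr2, Nr4a1, Nr4a2, Ier3, Klf4 and Klf6. Egr1 was left out of the search by design, and no window was matched to Egr3, Ier2 or Klf10. For Egr2, with 5 windows, the window of the transcript named in the deposited tables was taken. The 250 bases before the start are printed in the gene's own direction, and capitals mark matches to the motifs searched on both strands. These were the CArG box (the site of serum response factor), the CRE of CREB (TGACGTCA) and its short form (TGACG, or CGTCA on the other strand, which the CRE contains), the EGR site (GCGNGGGCG), the AP-1 site (TGANTCA) and TATAAA.
Egr2, chr10:67537619-67537868, plus strand: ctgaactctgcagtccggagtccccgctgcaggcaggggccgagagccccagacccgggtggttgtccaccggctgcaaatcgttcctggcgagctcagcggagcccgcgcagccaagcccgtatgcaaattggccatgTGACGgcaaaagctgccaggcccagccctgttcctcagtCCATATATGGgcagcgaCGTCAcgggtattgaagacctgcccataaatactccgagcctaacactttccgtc
Nr4a1, chr15:101266596-101266845, plus strand: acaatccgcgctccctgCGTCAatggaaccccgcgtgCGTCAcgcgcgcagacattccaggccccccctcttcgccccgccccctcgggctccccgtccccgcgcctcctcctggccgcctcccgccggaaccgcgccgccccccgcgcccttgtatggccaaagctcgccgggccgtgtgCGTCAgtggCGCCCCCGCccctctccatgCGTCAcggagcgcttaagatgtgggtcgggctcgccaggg
Nr4a2, chr2:57124004-57124253, minus strand: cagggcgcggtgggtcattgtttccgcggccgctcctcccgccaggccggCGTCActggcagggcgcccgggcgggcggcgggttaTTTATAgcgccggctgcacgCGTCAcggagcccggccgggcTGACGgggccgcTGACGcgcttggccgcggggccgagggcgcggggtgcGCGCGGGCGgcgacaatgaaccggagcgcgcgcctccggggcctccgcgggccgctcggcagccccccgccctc
Klf4, chr4:55532476-55532725, minus strand: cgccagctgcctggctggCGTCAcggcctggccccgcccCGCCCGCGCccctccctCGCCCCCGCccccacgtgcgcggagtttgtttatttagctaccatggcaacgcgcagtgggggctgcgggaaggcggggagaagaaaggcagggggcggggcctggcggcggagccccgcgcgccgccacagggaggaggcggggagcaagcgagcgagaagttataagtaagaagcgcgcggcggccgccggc

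The Egr2 window held the single CArG box found in the 6 windows searched. It began 72 bases before the start, between copies of the short CRE motif at 111 and 55 bases. The windows of the NR4A genes each held 4 short CRE motifs and 1 EGR site, and that of Nr4a2 also held TATAAA, 164 bases before the start. The Klf4 window held 1 short CRE motif and 2 EGR sites, while those of Ier3 and Klf6 held none of the motifs searched. None of the 6 windows held the whole CRE or the AP-1 site. For comparison, of 32817 windows of this length 1.63% held a CArG box, 20.8% the short CRE motif, 5.56% an EGR site, 13.6% TATAAA, 1.79% the whole CRE and 7.81% an AP-1 site. A match is a run of letters, and binding was not measured.

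The comparison of DF508 with WT asked whether early-response transcripts differed in cells with mutant Cftr. Most were lower: Egr2, Ier2, Ier3, Klf4 and Klf6 fell, by 1.43-fold to 1.80-fold in the fit, and none of the 10 rose. In such bulk samples, fewer cells that express a gene and less RNA per cell cannot be told apart. Across all genes the same test called 0.900% of 12888 genes lower and 0.489% higher, against 5 and 0 of these 10 genes (Benjamini-Hochberg adjusted p under 0.05, quasi-likelihood test of edgeR). By direction alone, 7 were below WT in both DF508 libraries, where 29.6% of 13233 genes averaging at least 1 CPM were. Klf10 and Nr4a2 were above WT in both, as were 43.2% of such genes, and Nr4a1 was above it in DF508 replicate 2 only. The median fitted log2 fold change was -0.51 over the 10 genes and 0.01 over all genes tested. All 10 passed the filter on low counts. The calls depended on the model: the Wald test of DESeq2 called Ier2 alone of the 10 genes, and 0.427% lower and 0.234% higher of the 9831 genes to which it gave an adjusted p. Under edgeR or limma, 0 of the 10 genes, with 0% of all genes, passed when counts were scaled by library totals alone, when no filter was applied or with limma on log2 FPKM.

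By size, without a model, Egr2, Ier2, Ier3 and Klf4 lay below WT by at least 1.5-fold in each DF508 library, as did 2.55% of the genes averaging at least 1 CPM. Nr4a2 and Klf10 were at least 1.5-fold higher in both, against 5.85% of such genes. At a fold of 2 none of the 10 was lower, where 0.680% of such genes were, and Klf10 alone was higher, where 2.30% were. In 9 of the 10 genes the DF508 libraries lay nearer to each other than either lay to WT on the log2 scale, the exception being Nr4a1. Counting error alone could cover the distance between the DF508 libraries for 8 of the 10, since the exact 95% Poisson interval of their ratio included 1. It did not for Egr1 and Nr4a1. Intervals of this kind cover counting error only. The 9 and the 8 were not counted over all genes, so neither is read as particular to these 10.

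**Figure D2:**
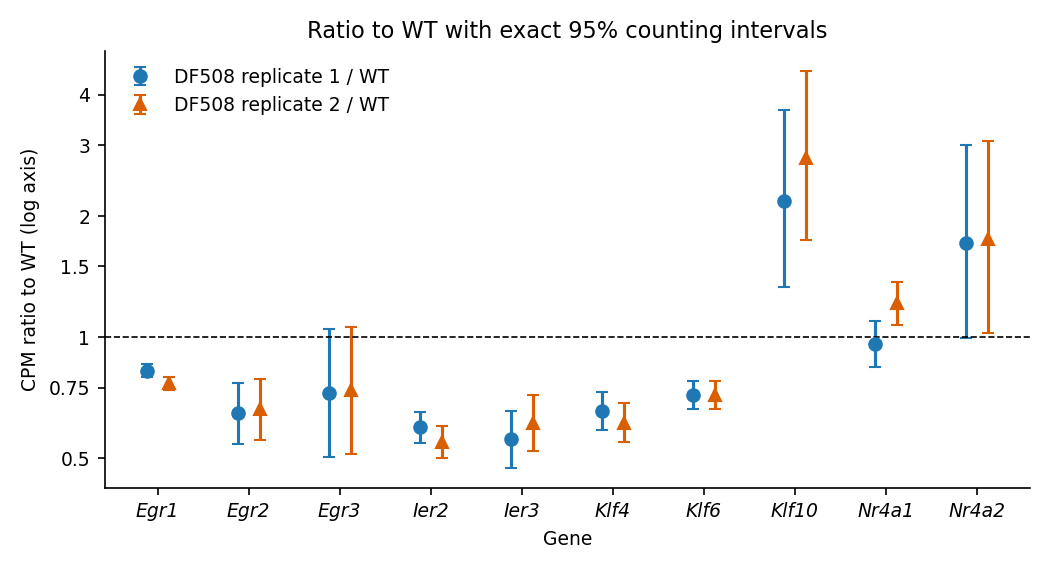
Ratio of CPM in each DF508 library to CPM in the WT library (log axis; circles replicate 1, triangles replicate 2), with exact 95% Poisson intervals that cover counting error only. The dashed line marks equality; both ratios lie below it for the EGR genes, the IER genes, Klf4 and Klf6, and both above it for Klf10 and Nr4a2.

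Among the EGR factors, the fall passed the test in Egr2 alone. Egr2 (gene ID 13654), which besides its role in tendon is known as a regulator of myelination, had 62.5 CPM in WT, 40.4 CPM in DF508 replicate 1 and 41.4 CPM in DF508 replicate 2, from 331, 212 and 217 counts. The DF508 values were nearly equal and well below WT. Its log2 fold change was -0.66 ± 0.13 (SE), 1.57-fold lower (adjusted p = 0.0453, edgeR; 1.00 with DESeq2). Egr1 (gene ID 13653), the most abundant and best studied EGR factor, had 1328 CPM in WT and 1098 and 1020.4 CPM in the DF508 libraries, from 7036, 5757 and 5354 counts. With this depth the counting intervals of the ratios to WT were narrow, 0.799 to 0.856 and 0.741 to 0.796. The DF508 libraries also differed from each other beyond counting error, with a ratio of 0.929 (0.895 to 0.964). The log2 fold change of Egr1 was -0.37 ± 0.09 and did not pass the threshold (adjusted p = 0.111, edgeR). Egr3 (gene ID 13655), which can bind the same DNA sites, had 14.2, 10.3 and 10.5 CPM from 75, 54 and 55 counts. Both counting intervals of Egr3 included 1 (0.503 to 1.05 and 0.513 to 1.06), and its log2 fold change of -0.49 ± 0.25 did not pass (adjusted p = 0.493, edgeR).

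Both IER genes fell. Ier2 (gene ID 15936) had 241 CPM in WT and 144 and 132 CPM in the DF508 libraries, from 1278, 755 and 695 counts. The ratios to WT were 0.597 (counting interval 0.545 to 0.654) and 0.549 (0.5 to 0.603), so both DF508 libraries lay far below WT. Its log2 fold change of -0.85 ± 0.11 was the strongest fall among the 10 genes, 1.80-fold, with an adjusted p of 0.0111 in edgeR and 0.00482 in DESeq2. Ier3 (gene ID 15937) had 78.9 CPM in WT and 44.1 and 48.4 CPM in DF508, from 418, 231 and 254 counts. Here DF508 replicate 1 was the lowest library, whereas for Ier2 it was replicate 2. For both genes the counting interval of the ratio between the DF508 libraries included 1. The log2 fold change of Ier3 was -0.81 ± 0.12, 1.76-fold lower (adjusted p = 0.0206, edgeR; 0.425 with DESeq2).

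The KLF genes parted: Klf4 and Klf6 fell and Klf10 had higher values in DF508. Klf4 (gene ID 16600), known as a reprogramming factor and a regulator of smooth muscle genes, had 162 CPM in WT and 106 and 99.1 CPM in DF508, from 856, 557 and 520 counts. Klf6 (gene ID 23849), known as a tumour suppressor and injury-response factor, had 279 CPM in WT and 201 and 200 CPM in DF508, from 1476, 1051 and 1049 counts. The DF508 libraries were thus within 2 counts of each other for Klf6. The log2 fold change was -0.70 ± 0.11 for Klf4 (1.62-fold lower, adjusted p = 0.0213, edgeR) and -0.52 ± 0.10 for Klf6 (1.43-fold lower, adjusted p = 0.0440, edgeR). With DESeq2 the adjusted p was 0.163 for Klf4 and 0.278 for Klf6.

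Klf10 (gene ID 21847) went the other way at a low level. It had 4.72 CPM in WT and 10.3 and 13.2 CPM in DF508, from 25, 54 and 69 counts. Both DF508 values were more than 2-fold above WT, with ratios of 2.18 (counting interval 1.34 to 3.66) and 2.79 (1.74 to 4.60). The log2 fold change of 1.26 ± 0.34 was the widest of the 10 genes in size, but it did not pass the threshold (adjusted p = 0.158, edgeR).

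Neither NR4A gene passed the test. Nr4a1 (gene ID 15370), known as Nur77, had 89.7 CPM in WT, 86.2 CPM in DF508 replicate 1 and 109 CPM in DF508 replicate 2, from 475, 452 and 571 counts. WT lay between the DF508 libraries, which differed from each other by a ratio of 1.26 (counting interval 1.11 to 1.43). Its log2 fold change was 0.08 ± 0.15 (adjusted p = 0.897, edgeR). Nr4a1 was highest in DF508 replicate 2, the library with the highest myeloid markers, and the part of those cells in its level was not tested. Nr4a2 (gene ID 18227), known as Nurr1, had 4.35 CPM in WT and 7.48 and 7.71 CPM in DF508, from estimates of 23.0, 39.2 and 40.5 counts. Both DF508 values were above WT, with ratios of 1.71 (0.998 to 3.01) and 1.76 (1.03 to 3.07) from the rounded counts, and the log2 fold change of 0.75 ± 0.39 did not pass (adjusted p = 0.499, edgeR). Nr4a2 was the sole gene of the 10 whose estimates were not whole numbers, so part of its reads could not be assigned to it alone, and its values are uncertain. It was also the sole one with 2 transcripts in the tables. The length RSEM assigned to it was 3081.61 bases in WT and 3026 bases in both DF508 libraries, a difference in the estimated transcript mix that rests on 23 counts in WT.

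Markers of other cell types also differed between the libraries. The falls of Egr2, Ier2, Ier3, Klf4 and Klf6 were seen in both DF508 libraries. Myeloid markers summed to 104 CPM in WT, 164 CPM in DF508 replicate 1 and 763 CPM in DF508 replicate 2. The part of myeloid cells in the falls was not tested. All 16 myeloid markers had a positive log2 fold change, with a median of 2.20, and none passed the test. In replicate 1 alone the median log2 ratio to WT over the 10 genes was -0.47, and in replicate 2 alone -0.46; both ratios share the WT library. Smooth muscle and pericyte markers summed to 1149 CPM in WT and 2040 and 2009 CPM in DF508. Of 10 tested markers 5 were called higher, where 0.489% of all genes tested were. The smooth muscle actin Acta2 rose from 411 CPM to 1071.5 and 1020.5 CPM (2.47-fold, adjusted p = 0.00178, edgeR), and it shares reads and is uncertain. Calponin, Cnn1, rose 3.56-fold, Mustn1 2.94-fold, the actin nucleator Lmod1 2.04-fold and the actin-binding Tagln 2.02-fold, of which Lmod1 did not pass with DESeq2. The other 5 tested did not pass: Cspg4, Notch3 and Myh11 had positive log2 fold changes of 0.54, 0.18 and 1.07, and Pdgfrb and Mcam negative ones of -0.19 and -0.67. The smooth muscle myosin Myh11 had 6, 14 and 12 counts, and the pericyte marker Rgs5, left out by the filter on low counts, had 0, 5 and 2 counts. The summed level was thus higher in both DF508 libraries, although Myh11 and Rgs5 had few counts. Whether the sum reflects smooth muscle cells or pericytes was not tested, nor was any part of such cells in the early-response values.

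Other early-response genes outside these families were mostly lower too, in a list chosen with earlier results of these data known. Of 38 listed, 36 were tested, 13 fell and none rose, where 0.900% of all genes tested fell and 0.489% rose. By sign, 33 of the 36 had a negative log2 fold change, with a median of -0.49 beside 0.01 for all genes tested. The fall reached 2.31-fold in Jun, a subunit of AP-1, from 449 CPM in WT to 237 and 164 CPM in DF508 (log2 fold change -1.21 ± 0.18, adjusted p = 0.0193, edgeR). Gadd45a, a DNA-damage and stress-response gene, fell 2.26-fold, from 21.5 CPM to a DF508 mean of 9.82 ± 0.411 CPM (SD, n = 2). Trib1, a pseudokinase that promotes protein degradation, fell 2.10-fold, from 64.9 to 31.9 ± 0.696 CPM. Arc, best known as a synaptic early-response gene in neurons, fell 2.00-fold, from 43.6 to 22.5 ± 0.793 CPM. These 4 had adjusted p-values of 0.0111 to 0.0490 in edgeR and did not pass with DESeq2, with adjusted p-values of 0.161 to 1.00. DESeq2 called 7 others of the list, all lower, where it called 0.427% of 9831 genes lower. They were Fos, Fosb, Junb, Dusp1, Zfp36, Btg2 and Nfkbiz, named beyond the rule. The 3 listed genes with a positive log2 fold change, Srf, Per1 and Tnfaip3, did not pass, and they are named here after their values were seen.

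Among closer relatives, Klf2 alone passed. Of 18 listed EGR, NR4A, IER and KLF relatives 13 were tested. Of these 1 fell and none rose, where 0.900% of all genes tested fell and 0.489% rose. There were 6 negative and 7 positive log2 fold changes, with a median of 0.03. Klf2, known as a flow-responsive factor in endothelium, had 105 CPM in WT and 63.3 and 66.7 CPM in DF508, and was 1.66-fold lower (log2 fold change -0.73 ± 0.11, adjusted p = 0.0202, edgeR; 0.351 with DESeq2). Of 6 endothelial markers, Pecam1, Cdh5, Tie1 and Emcn were not listed above 0 in any library, Kdr had 1, 0 and 1 counts, and Tek had 77, 69 and 65 counts. Tek, the receptor of angiopoietins, had 14.5 CPM in WT and 13.2 and 12.4 CPM in DF508 and did not pass (adjusted p = 0.778, edgeR), and the part of endothelial cells in the level of Klf2 was not tested. The last members of the EGR and NR4A families were scarce: Egr4 had 4, 1 and 9 counts and Nr4a3 0, 0 and 5 counts, against 3 counts that an estimate of 0 allows. Both are named beyond the rule.

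None of 19 upstream regulators passed at the mRNA level, where 0.900% of all genes tested fell and 0.489% rose. In a list this short, none called cannot be told apart from those shares. The mRNA level does not measure the activity of these regulators. Their median log2 fold change was 0.08, with 8 negative and 11 positive. The kinase Mapk3, which relays growth factor signals to these promoters, had 142 CPM in WT and a DF508 mean of 142 ± 9.74 CPM (SD, n = 2). Its log2 fold change was -0.04 ± 0.11 (adjusted p = 0.925, edgeR).

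No tested gene in the lists of genes linked to the EGR, KLF and NR4A factors passed as lower, where 0.900% of all genes tested did. In lists this short, none called cannot be told apart from that share. Those lists hold corepressors and partners as well as targets. Among 16 EGR corepressors and EGR-linked tendon genes there were 2 that rose, where 0.489% of all genes tested rose. The median log2 fold change was 0.04. The fibril-associated collagen Col14a1 went from 66.8 CPM in WT to 124 and 131 CPM in DF508 (1.85-fold, adjusted p = 0.0112, edgeR), and the small proteoglycan Dcn from 725 to 1031 and 1110 CPM (1.43-fold, adjusted p = 0.0417, edgeR). None of the 9 tested KLF and NR4A partners and targets passed, with a median of 0.03. The most abundant, the chemokine Cxcl12, had 2184 CPM in WT and 1943 and 2577 CPM in DF508 (adjusted p = 0.995, edgeR). The cell cycle inhibitor Cdkn1a had 220 CPM in WT and 191 and 172 CPM in DF508 (log2 fold change -0.32 ± 0.11, adjusted p = 0.255, edgeR).

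**Figure D3:**
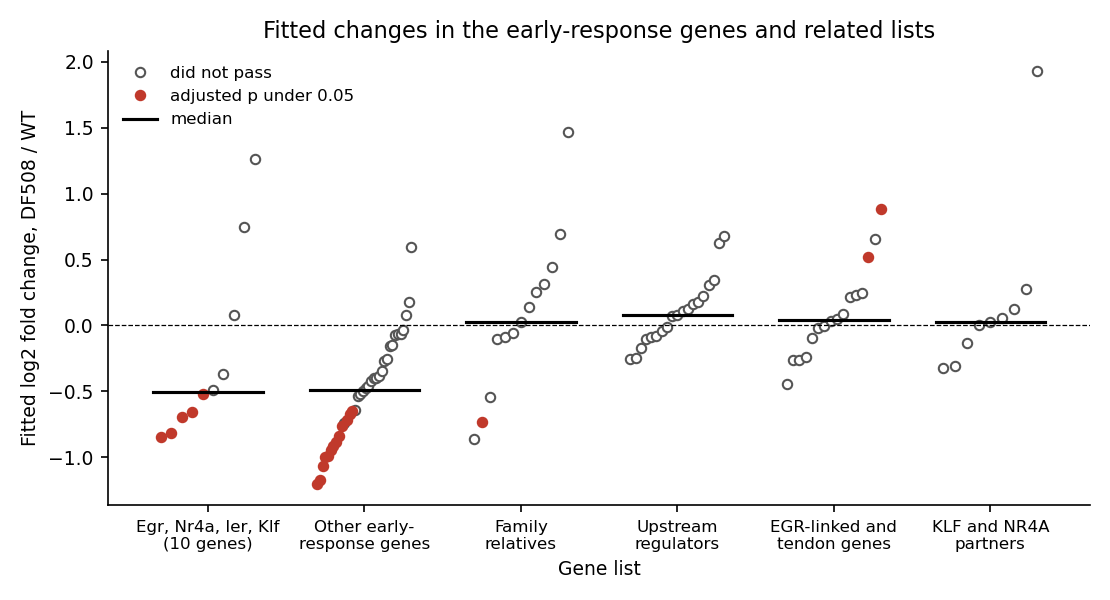
Fitted log2 fold change of DF508 over WT for each tested gene of 6 lists; filled points passed an adjusted p of 0.05 in edgeR, open points did not, and the line is the list's median. Medians lie at -0.51 for the 10 genes and -0.49 for other early-response genes, and between 0.03 and 0.08 for the other 4 lists.

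The genes most like the 10 in pattern were H2bc4, Xdh, Hmox1, Atp6v1d and Alkbh5. They were the nearest of 3942 genes averaging at least 50 CPM, by the distance of their log2 ratios to WT in DF508 replicates 1 and 2 from the medians of the 10 genes, at distances of 0.02 to 0.04. Hmox1, the inducible heme oxygenase, had 451 CPM in WT and 327 and 322 CPM in DF508 and was the sole one of the 5 to pass (log2 fold change -0.52 ± 0.10, adjusted p = 0.0428, edgeR). Xdh, the enzyme that makes uric acid, had 286, 205 and 212 CPM (adjusted p = 0.0512, edgeR). H2bc4, a histone, and Alkbh5, an RNA demethylase, share reads and are uncertain. Likeness over 3 libraries is a description of these libraries only.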

How the data were processed

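Poly(A) RNA of 1 WT and 2 DF508 libraries was sequenced on an Illumina HiSeq, per the labels. Reads were aligned with Bowtie and quantified with RSEM on the mm9 build, per the submitters' processing notes; versions, annotation release and strand use were not stated in those sources. Per the file headers, the deposited tables give the expected count per gene (not normalized), the FPKM made by the authors, and the length RSEM used. Genes missing from a table were set to 0. Of the expected counts 79.4% to 79.8% were whole within 0.005; other values mark genes that share reads. Gene IDs were matched to RefSeq symbols (GRCm38.p6) for 99.7% of 16621 IDs, the 10 members included.

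Expected counts were rounded and tested with edgeR 4.0.16 (quasi-likelihood, TMM, filterByExpr, genotype as sole term, R 4.3.3). The fit leaves 1 residual degree of freedom, which the DF508 pair supplies and to which edgeR added 7.72 estimated prior degrees of freedom. WT was assumed to vary like that pair. Standard errors are the log2 fold change over the root of F. CPM used library totals. An exact permutation test over 1 against 2 libraries cannot go below a one-sided p of 0.333 and was not used. Alternatives were other scalings, filters, DESeq2 1.42.0, limma 3.58.1 (voom, and trend on log2 FPKM plus 1 or 0.1), and leaving out each DF508 library. The fit was also run on simulated data. Such data cannot show how much WT libraries vary, since WT was not replicated, and no conclusion is drawn from them here.

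The members, the 12 other lists and the tests were chosen with earlier results of these data known. Named are all members and, per list, up to 4 genes past the threshold by fold or else up to 2 by FPKM, with exceptions stated; 1 gene that this rule names is not reported here.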

Additional observations from a re-analysis of the deposited data

How the results depend on the processing

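The direction of all 10 genes was the same in every fit across all genes that tested them. Nr4a1 ranged from a log2 ratio of -0.056 (without DF508 replicate 2) to 0.28 (without DF508 replicate 1). The number of the 10 genes called, 5 in the reported fit, was 3 with upper-quartile factors, 1 with DESeq2's Wald test, and 0 with library totals alone, with no filter on low counts and in the 3 limma fits on log2 FPKM (mean FPKM of at least 1 with a pseudocount of 1 or 0.1, or no filter with a pseudocount of 1). In those 5 fits no gene was called out of all tested, where 7, 7, 8, 8 and 8 of the 10 had an unadjusted p under 0.05, as did 1253, 1123, 1145, 1159 and 1615 of all genes. The estimated prior degrees of freedom, recorded after the data were seen, were 2.57 with library totals and 1.78 with no filter against 7.72 in the reported fit. Of all genes, 179 were called in the reported fit, 65 with DESeq2 and 403 with edgeR's likelihood ratio test. Among the other early-response genes, 13 were called, 7 with DESeq2 and 0 in the same 5 fits, alternatives added after the data were seen. DESeq2's median-of-ratios factors in edgeR, a mean of at least 50 counts (which leaves out Klf10 and Nr4a2), limma-voom and the likelihood ratio test each called the same 5 of the 10 genes, where they called 0.939%, 1.06%, 1.06% and 1.71% of all genes lower (0.815% with upper-quartile factors). The adjusted p of Ier2 ranged from 2.93e-08 to 0.662, and that of Egr2 from 0.00241 to 1.00; the cause was not tested.

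The median log2 fold change of the 10 genes, -0.51, was -0.48 with upper-quartile factors, -0.46 with library totals, -0.58 with a mean of at least 50 counts and -0.43, -0.46 and -0.43 in the limma fits on FPKM. With either DF508 library left out it was -0.47 to -0.46, as single ratios with no test. Those ratios used library totals, the scaling whose fit to all libraries gave -0.46. The 6 genes that differed from WT by 1.5-fold or more in each DF508 library became 1 at a fold of 2, and 6 to 6 with either DF508 library left out. No paired analysis was possible because there was a single WT library and no label links it to a DF508 library. Depth limits Klf10, Nr4a2 and Egr3, with 23 to 75 counts a library.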
